A study of Homo sapiens with 12 samples.

Results

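A set of 10 genes from 3 families of detoxifying enzymes were followed: the aldo-keto reductases AKR1B1, AKR1B10, AKR1C1, AKR1C2 and AKR1C3, the aldehyde dehydrogenases ALDH1A1 and ALDH3A1, and the glucuronosyltransferases UGT1A1, UGT1A6 and UGT1A9. They were chosen by symbol and selected on 2 measured values. One was a high level in these libraries, labelled A549 (the aldehyde dehydrogenases and several reductases). The other, above all for UGT1A9, was the difference between knockout and control cells grown alone. All 10 of them were found among the 61541 genes of the count table. All 10 also passed the filter on low counts, with 16768 genes in all, but the UGT1A genes passed it through the knockout libraries alone. RNA had been sequenced from cells labelled A549, an established line of human lung adenocarcinoma, at day 14 after transduction. There were 4 groups of 3 libraries: a non-targeting guide with the cells alone (lone control), the same guide in co-culture (co-cultured control), Cas9 with a guide to TYMS (lone knockout), and the TYMS guide in co-culture (co-cultured knockout), in which parental A549 cells were the partner. All 4 groups had been transduced and grown in DMEM with serum. The partner of the control cells, any sorting before lysis and whether the replicates were separate cultures are not given in the sources used here, so each p-value measures only the spread between these libraries.

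Aldo-keto reductases use NADPH to turn aldehydes and ketones into alcohols. AKR1B1 reduces glucose and lipid aldehydes, AKR1B10 reduces retinal and other aldehydes, and the AKR1C enzymes reduce ketosteroids and prostaglandins. Aldehyde dehydrogenases oxidise aldehydes to acids, and UGT1A enzymes attach glucuronic acid to bilirubin, phenols and drugs so that they can leave the cell. Many of these genes are known targets of the transcription factor NRF2, which the adaptor KEAP1 marks for destruction, and A549 is known for a KEAP1 mutation that leaves NRF2 active. The UGT1A genes lie in one locus, in which each gene has a first exon of its own and all share the remaining exons.

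The promoters of 2 pairs are shown because the genes of each pair differed in these libraries, as described further on, although the windows printed here are alike. Windows of 250 bases before the start, 5′ to 3′ on the gene's strand, were read from RefSeq on GRCh38.p14, which held 8 of the 10 genes. AKR1C1 (chr10:4963165-4963414, plus strand) and AKR1C2 (chr10:5003858-5004107, minus strand) were identical in 245 of 246 aligned columns, or 99.6%, and capitals mark the column that differed.
AKR1C1: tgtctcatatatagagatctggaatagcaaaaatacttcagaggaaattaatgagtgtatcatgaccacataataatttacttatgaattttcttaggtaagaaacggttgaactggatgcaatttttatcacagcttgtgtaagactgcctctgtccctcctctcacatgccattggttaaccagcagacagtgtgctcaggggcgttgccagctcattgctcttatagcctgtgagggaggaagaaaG
AKR1C2: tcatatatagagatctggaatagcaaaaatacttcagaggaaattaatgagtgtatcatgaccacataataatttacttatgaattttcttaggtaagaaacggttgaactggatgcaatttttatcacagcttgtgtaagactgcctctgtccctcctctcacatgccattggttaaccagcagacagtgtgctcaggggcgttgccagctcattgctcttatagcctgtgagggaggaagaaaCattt
UGT1A9 (chr2:233671648-233671897, plus strand) and its neighbour UGT1A7 (chr2:233681651-233681900, plus strand) were identical in 201 of 254 columns, or 79.1%, and capitals mark bases that were replaced or had no partner.
UGT1A9: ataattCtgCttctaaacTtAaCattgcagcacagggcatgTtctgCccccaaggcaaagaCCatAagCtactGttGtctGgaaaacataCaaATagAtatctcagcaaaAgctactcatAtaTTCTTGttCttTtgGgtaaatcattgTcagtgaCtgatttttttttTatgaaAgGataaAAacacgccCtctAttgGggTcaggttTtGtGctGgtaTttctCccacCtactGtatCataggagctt
UGT1A7: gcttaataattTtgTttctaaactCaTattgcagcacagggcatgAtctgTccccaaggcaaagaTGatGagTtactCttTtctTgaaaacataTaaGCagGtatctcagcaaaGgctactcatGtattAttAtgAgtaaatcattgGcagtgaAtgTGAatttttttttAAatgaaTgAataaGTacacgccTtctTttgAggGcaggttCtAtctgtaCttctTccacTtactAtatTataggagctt
AKR1C3 was identical to AKR1C1 in 74.0% of 250 columns. The windows were searched on both strands for the core of the antioxidant response element, TGACNNNGC, at which NRF2 acts, the core of the xenobiotic response element, TNGCGTG, at which the aryl hydrocarbon receptor acts, and the AP-1 site TGANTCA. Among the 8 genes only windows of UGT1A6 held a match, TCGCGTG starting 202 bases and TGACACGGC starting 98 bases before 2 different starts. The 3 motifs occurred in 10.9%, 4.52% and 6.57% of all 35116 windows of this length. A match is a description of letters, and its absence says only that the letters are not in that window.

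Library totals ran from 14921371 to 35723762 counts. TYMS, which makes thymidylate, was at 90.3 to 101 CPM in the 6 control libraries, 20.3 to 21.4 in the lone knockout and 10.7 to 11.4 in the co-cultured knockout, in the direction of its label. CPM here are TMM-scaled counts per 1e6 counts in the genes tested. The labelled cell line was also checked. CDKN2A and MTAP, both known to be deleted in A549, stood at 54.7 to 116 and 43.8 to 79.5 CPM in the libraries labelled control, against 0 to 0.119 and 0.302 to 0.647 CPM in those labelled knockout. CDKN2B was at 1.61 to 2.89 CPM in control and 0 in knockout libraries. The epithelial marker EPCAM was at 94.4 to 119 CPM in the control and 0.149 to 0.913 CPM in the knockout libraries. In co-culture 5 of the 6 epithelial markers were called lower in knockout than in control, with a median log2 fold change of -1.13. The remaining 1, KRT7, was higher, at a mean of 1816 CPM in control and 6063 in knockout. Their sum, mostly keratins, was 10932 to 14845.5 CPM in the co-cultured control and 8358 to 13564 CPM in the co-cultured knockout. Each comparison of knockout with control below is therefore one between libraries that differ in more than TYMS. The guide cannot be told apart from whatever else separates the 2 sets. The levels of CDKN2A and MTAP in the libraries labelled control are at odds with the A549 label, and the reason was not tested. Whether both sets carry the KEAP1 mutation known in A549 was not tested either. Leukocyte markers, among which CD3E was at 0 in all 12 libraries, summed to 0.0620 to 0.219 CPM in the lone control and 2.57 to 3.61 CPM in the co-cultured knockout, and their part in the results was not tested. Replicates also differed in a trend with transcript GC content. Over 4875 genes, library deviations from the group had Spearman correlations with GC from -0.831 (co-cultured knockout replicate 3) to 0.805 (co-cultured knockout replicate 2). Values with offsets for GC are therefore given beside several results. The offsets were set against the mean of all 12 libraries, so they also remove differences between groups that follow GC. Over the same genes the log2 difference between knockout and control had a Spearman correlation with GC of -0.449 in lone cells and -0.153 in co-culture. In such bulk RNA, more cells with a transcript and more transcript per cell cannot be told apart.

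The 10 genes together took up 0.668% ± 0.0858 of all counts in the lone control (SD, n = 3), 0.671% ± 0.0532 in the co-cultured control, 1.61% ± 0.0275 in the lone knockout and 2.21% ± 0.0545 in the co-cultured knockout. The knockout libraries did not overlap the control libraries in this share, and those in co-culture lay above those grown alone. Per kilobase of exon, ALDH3A1, AKR1B1 and ALDH1A1 had the highest levels in the lone control, at 598 ± 103, 532 ± 97.8 and 483 ± 130.5 CPM per kb, and these 3 did not differ beyond their spread. AKR1B10 followed at 300.2 ± 16.0 CPM per kb, then AKR1C2 at 85.8 ± 6.71, AKR1C3 at 50.7 ± 1.43 and AKR1C1 at 10.3 ± 0.543. In the co-cultured knockout AKR1B1 led at 2745 ± 643 CPM per kb, before AKR1B10 at 1250 ± 157 and ALDH1A1 at 1130 ± 445, and the latter pair did not differ beyond their spread. These are levels over all annotated exons of each gene, so a gene with long unused exons is placed too low. UGT1A9, counted over its own exon bases, went from 0.0440 ± 0.0381 CPM per kb in the lone control to 29.2 ± 6.04 in the lone knockout.

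**Figure D1:**
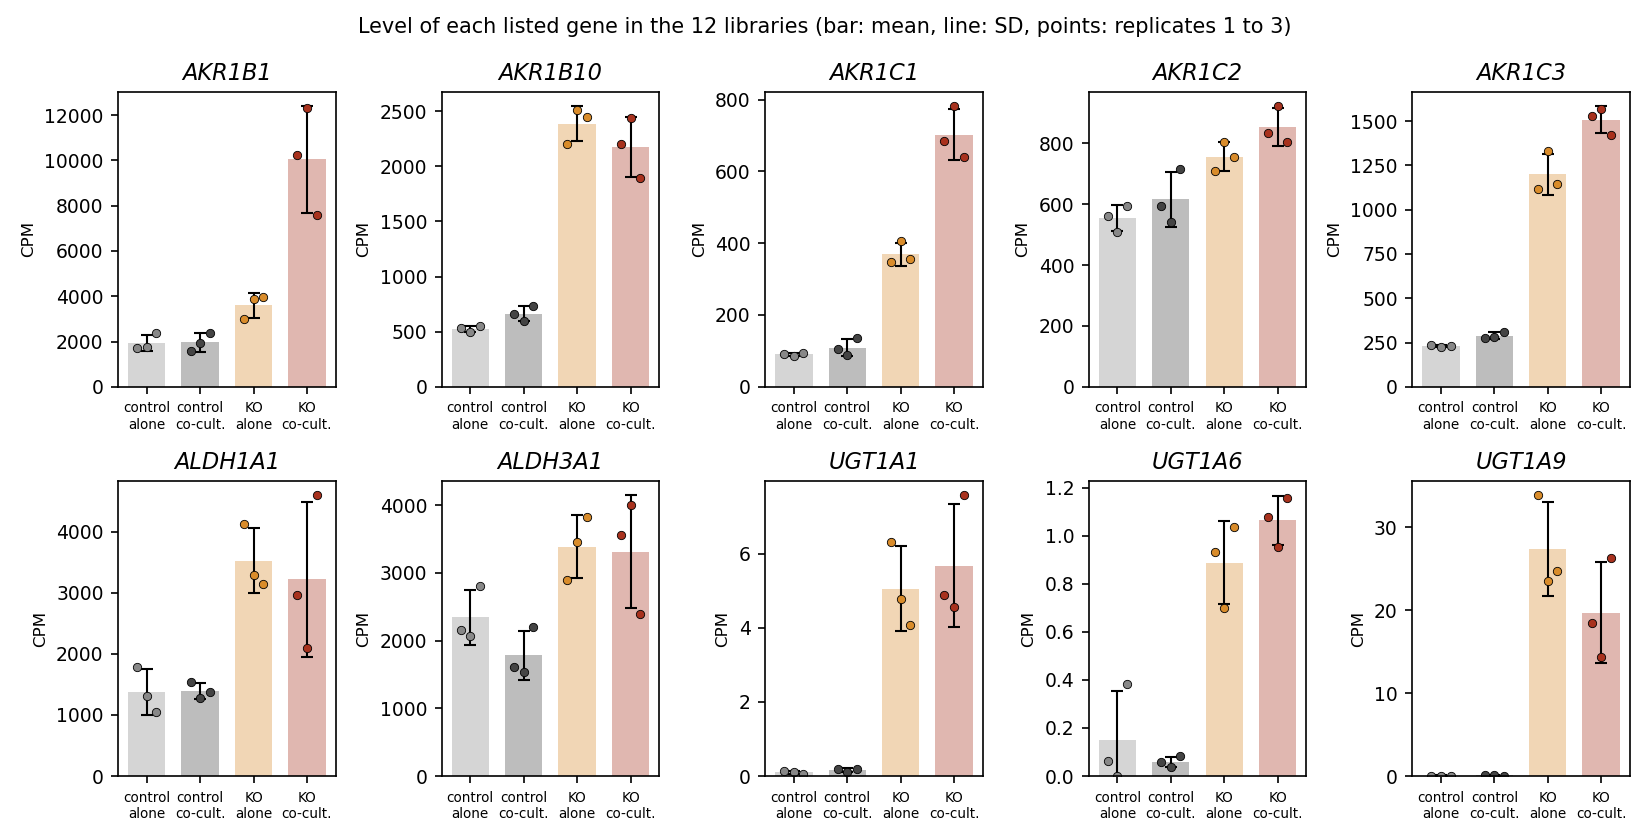
Level in CPM (TMM-scaled, linear axes from 0) of each of the 10 genes in the 12 libraries, by group. Points are replicates 1 to 3, bars the mean and lines the SD. All 10 genes lie higher in the knockout than in the control libraries of the same culture without overlap, and AKR1B1 and AKR1C1 lie higher again in the co-cultured knockout. The share of all genes without overlap was not counted, so this describes the 10 only.

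Knockout was compared with control separately in lone and in co-cultured cells, with edgeR's quasi-likelihood test and Benjamini-Hochberg adjustment over all 16768 genes. The genes had been listed with these comparisons in view, so the counts describe them and show nothing further. The same holds for the p-values against control that are given below for single genes. No test against control is given for the UGT1A genes, which had passed the filter through the knockout libraries. Of the 7 reductases and dehydrogenases, 6 rose in lone cells, where 28% of all genes tested rose, 28.6% fell and 56.6% changed in either direction. All 7 rose in co-culture, where 24.1% of all genes rose, 25.3% fell and 49.4% changed. The median log2 fold change of the 10, UGT1A genes included, was 2.11 in lone and 2.37 in co-cultured cells. Over all genes tested it was 0.09 and -0.02. The medians of the 10 only describe them, since the genes had been listed with this difference in view. The UGT1A genes had also passed the filter through the knockout libraries. When libraries were scaled by size alone, the median of all genes in lone cells moved to 0.24, so a change there is relative to a centre that depends on the scaling, but all 10 genes kept their direction under each scaling tried.

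**Figure D2:**
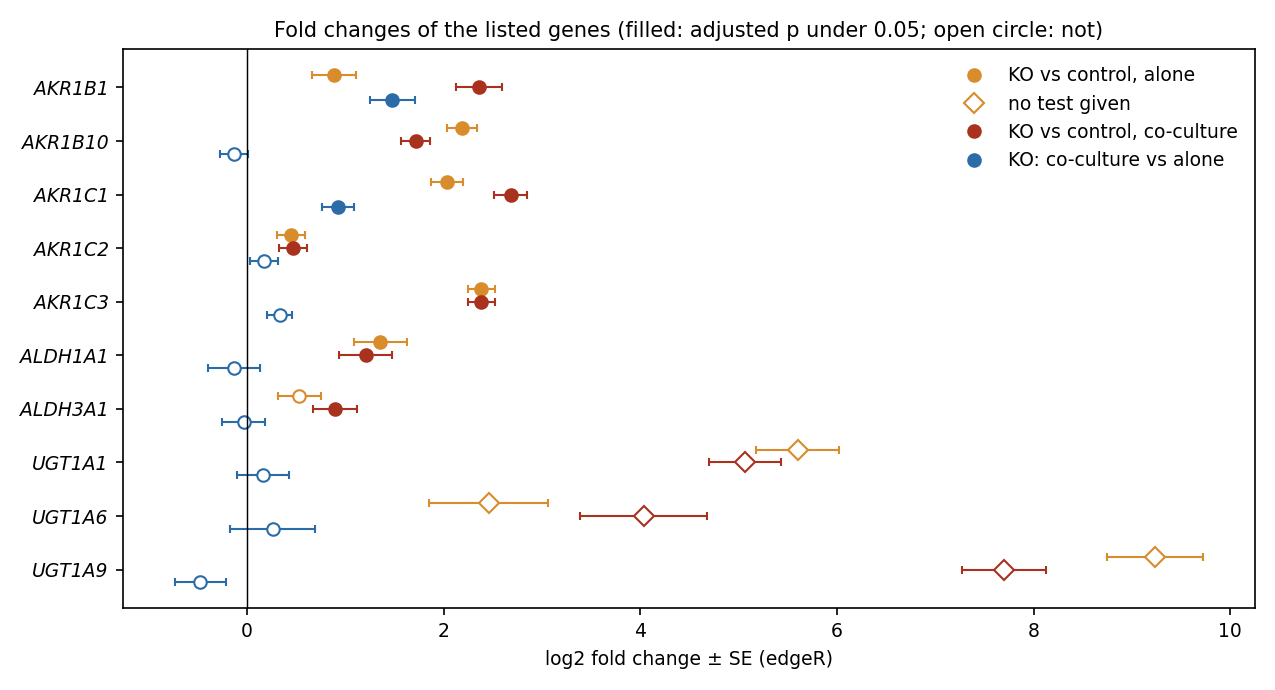
Log2 fold change with its SE (edgeR) of each of the 10 genes for knockout against control in lone cells, the same in co-culture, and co-cultured against lone knockout. Filled points had an adjusted p under 0.05, open circles did not, and diamonds are the UGT1A genes against control, given without a test. The UGT1A genes span the widest range, from 2.46 to 9.24 in lone cells, while AKR1C2 stays at 0.45 and 0.47.

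AKR1B1 (aldose reductase, chr7:134442350-134459284, GENCODE 29 on GRCh38) rose in the knockout, and rose again when knockout cells were co-cultured. It stood at 1721, 1764 and 2361 CPM in the lone control, 1567, 1917 and 2398 in the co-cultured control, 2977, 3856 and 3987 in knockout cells grown alone, and 10228, 12301 and 7606 in those co-cultured. The control groups overlapped, every knockout library lay above every control library, and every co-cultured knockout library lay above every lone one. The log2 fold change between knockout and control was 0.89 (SE 0.22, edgeR adjusted p = 0.00465) in lone and 2.36 (SE 0.23, edgeR adjusted p = 3.49e-06) in co-cultured cells. Between co-cultured and lone knockout it was 1.48 (SE 0.23, edgeR adjusted p = 0.00176), with 1.31 under GC offsets and 1.65 without co-cultured knockout replicate 3. The same step in control cells was 0.01 (SE 0.22). The difference between the 2 steps, 1.47 (SE 0.32), had an edgeR adjusted p of 0.0357, which passed in 9 of 19 alternatives and ranged from 1.28 to 1.64 over all of them. It was the one gene of the 10 for which this difference was called, where 1.51% of all genes had a positive, 0.286% a negative and 1.8% any difference of that kind. Of the calls 84.1% were positive, but 33.1% without co-cultured knockout replicate 3. It made up 1.01% ± 0.154 of all counts in the co-cultured knockout (n = 3), against 0.378% ± 0.0354 in the lone knockout.

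AKR1B10, the retinal-reducing relative on the same chromosome (chr7:134527592-134541408), rose in the knockout but not further in co-culture. Its levels were 529.6, 493 and 548 CPM in the lone control, 661, 596 and 733 in the co-cultured control, 2206, 2508 and 2448 in knockout cells grown alone, and 2199, 2442 and 1897 in those co-cultured. The knockout groups overlapped, and the co-cultured control libraries lay above the lone ones. Its log2 fold change against control was 2.19 (SE 0.15, edgeR adjusted p = 1.00e-07) alone and 1.72 (SE 0.15, edgeR adjusted p = 9.15e-07) in co-culture, and that of co-cultured against lone knockout was -0.13 (SE 0.14, edgeR adjusted p = 0.567). AKR1B15, its near copy next to it, was lower in level, at 4.75 ± 0.529 CPM in the lone control and 16.0 ± 0.445 in the lone knockout (n = 3). Of the 50-base windows in AKR1B10 transcripts, 14.6% also occur in another gene, so reads could have been split between them. Counted as 1 gene the pair rose by 2.19 and 1.72, the same as AKR1B10 to 2 decimals.

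The AKR1C genes, which lie side by side on chromosome 10, rose by unequal amounts. AKR1C3 (chr10:5035354-5107686), a prostaglandin and ketosteroid reductase, was at 236, 223 and 229.5 CPM in the lone control, 275, 282 and 309 in the co-cultured control, 1119, 1333 and 1144 in knockout cells grown alone, and 1531, 1571 and 1422 in those co-cultured. No group overlapped another. Its log2 fold change against control was 2.38 (SE 0.13, edgeR adjusted p = 1.73e-08) in lone and 2.39 (SE 0.13, edgeR adjusted p = 1.86e-08) in co-cultured cells. Between co-cultured and lone knockout it was 0.33 (SE 0.13, edgeR adjusted p = 0.105), and 0.85 (adjusted p = 0.0168) with offsets for GC in edgeR. The same step in control cells was likewise 0.33 (SE 0.13, adjusted p = 1), and 0.22 with offsets for GC.

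AKR1C1 (chr10:4963253-4983283), which inactivates progesterone, had 91.1, 85.2 and 94.6 CPM in the lone control, 104, 89.4 and 135 in the co-cultured control, 348, 406 and 355 in knockout cells grown alone, and 685, 782 and 641 in those co-cultured. The 2 control groups overlapped, and the knockout groups lay above them and apart from each other. It rose by 2.03 (SE 0.16, edgeR adjusted p = 4.66e-07) alone and 2.68 (SE 0.17, edgeR adjusted p = 5.22e-08) in co-culture on the log2 scale. From lone to co-cultured knockout it rose by 0.93 (SE 0.16, edgeR adjusted p = 0.00352), or by 1.50 with offsets for GC. The difference from the control's own step was 0.65 (SE 0.22, edgeR adjusted p = 0.173), was 1.33 (adjusted p = 0.0757) with offsets for GC, and passed without co-cultured knockout replicate 3 (0.71, adjusted p = 0.0437).

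AKR1C2 (chr10:4987400-5018031), the closest relative of AKR1C1 and known for reducing dihydrotestosterone, moved least. It had 561, 508 and 594 CPM in the lone control, 594, 540.2 and 716 in the co-cultured control, 709, 805 and 755 in knockout cells grown alone, and 832, 922 and 803 in those co-cultured. The knockout libraries lay above the control libraries of the same culture, but the co-cultured control reached 716, above the lowest lone knockout. The log2 fold change was 0.45 (SE 0.14, edgeR adjusted p = 0.0167) in lone cells and 0.47 (SE 0.14, edgeR adjusted p = 0.0153) in co-culture. With offsets for GC it was 0.03 (adjusted p = 0.912) and 0.42 (adjusted p = 0.0699), and each of the calls was lost in 6 of 20 alternatives, among them those without lone control replicate 2, lone knockout replicate 2, co-cultured control replicates 1 and 2, or co-cultured knockout replicate 2.

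The ratio of AKR1C1 to AKR1C2 was set up within each library after these values had been seen, since it does not depend on library size. Their printed windows differ in a single aligned column. However, that of AKR1C2 lies before a start inside the gene, and that of AKR1C1 runs past the annotated gene start. There were 0.163 ± 0.00423 AKR1C1 counts per AKR1C2 count in the lone control, 0.176 ± 0.0115 in the co-cultured control, 0.489 ± 0.0176 in the lone knockout and 0.823 ± 0.0248 in the co-cultured knockout (SD, n = 3). The 2 control groups overlapped and the knockout groups lay apart from them and from each other. The exact permutation p was 0.1 for each of the latter comparisons, two-sided, the smallest that 3 against 3 libraries allow. AKR1C3 counts per AKR1C2 count followed the same order at 0.415, 0.472, 1.58 and 1.77. Since 28.6% of 50-base windows of AKR1C1 and 38.9% of those of AKR1C2 also occur in another gene, mostly in each other, and the treatment of such reads is not given in the sources used here, the sizes are uncertain. Counted as 1 gene, AKR1C1 to AKR1C4 rose by 1.41 in lone cells (0.90 with offsets for GC) and 1.59 in co-culture, and the step from lone to co-cultured knockout was 0.40 (edgeR adjusted p = 0.0884).

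**Figure D3:**
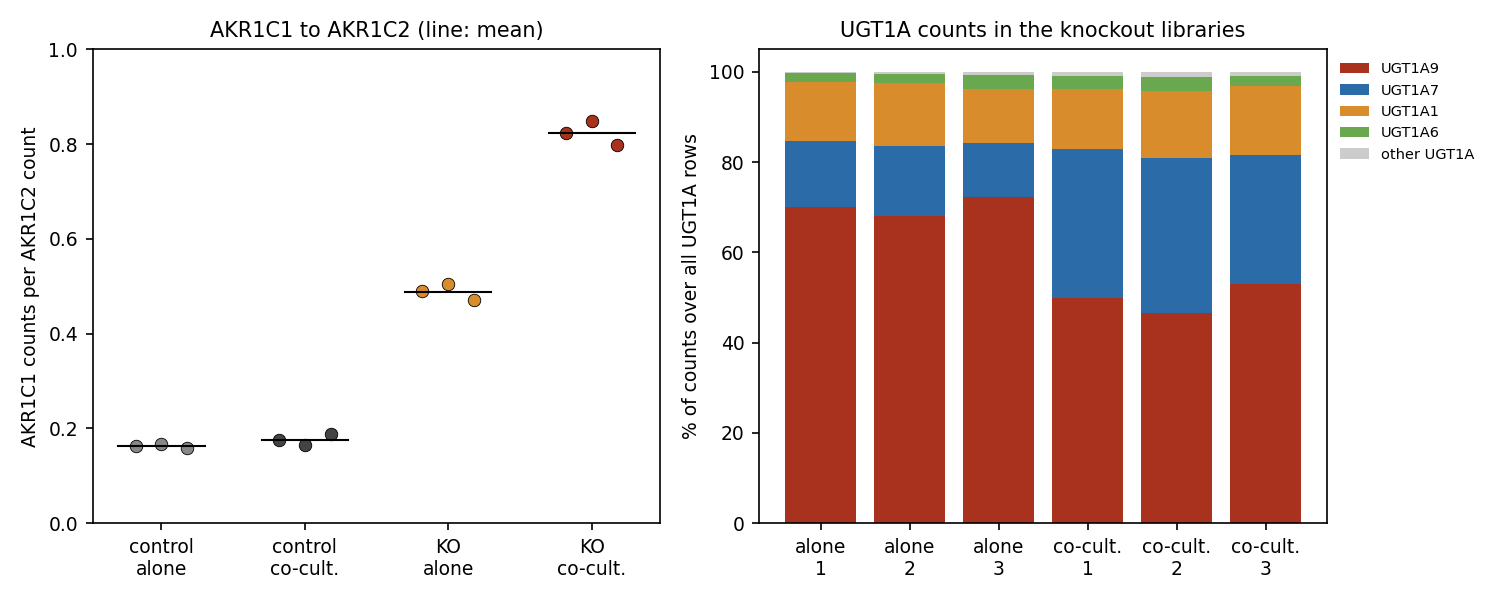
Left, AKR1C1 counts per AKR1C2 count in each of the 12 libraries (points, replicates 1 to 3; line, group mean), which are near 0.163 to 0.176 in control, 0.489 in lone knockout and 0.823 in co-cultured knockout. Right, the percent of all UGT1A counts that each gene took in each knockout library, with UGT1A7 at 14.0% on average alone and 32.0% in co-culture.

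Both aldehyde dehydrogenases were abundant in every library, as the choice of genes had required. ALDH1A1 (chr9:72900662-73080442), a retinal dehydrogenase often used as a stem cell marker, had 1778, 1309 and 1044 CPM in the lone control, 1535, 1273 and 1380.0 in the co-cultured control, 4134, 3299 and 3138 in knockout cells grown alone, and 2960.3, 2102 and 4596 in those co-cultured. The knockout libraries lay above all control libraries, and the co-cultured knockout was the widest group, spanning the lone knockout. ALDH1A1 rose 2.56-fold in lone cells (edgeR adjusted p = 0.000907) and 2.31-fold in co-culture (edgeR adjusted p = 0.0023), with an SE of 0.27 on the log2 scale in each. With offsets for GC the log2 fold change in lone cells was 0.84. Its step from lone to co-cultured knockout was -0.13 (SE 0.26, edgeR adjusted p = 0.769), but 0.32 (adjusted p = 0.0307) with offsets for GC in edgeR.

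ALDH3A1 (chr17:19737984-19748943), which oxidises aromatic and lipid aldehydes, had 2158, 2066 and 2804 CPM in the lone control, 1613, 1533 and 2199 in the co-cultured control, 2893, 3454 and 3822 in knockout cells grown alone, and 3559.5, 3996 and 2387 in those co-cultured. The lowest lone knockout library lay just above the highest lone control, and co-cultured knockout replicate 3 lay below every lone knockout. The log2 fold change in lone cells was 0.53 (SE 0.22, edgeR adjusted p = 0.0544), with 9 of 20 alternatives past the threshold and a value of 1.22 with offsets for GC. In co-culture ALDH3A1 rose by 0.90 (SE 0.22, edgeR adjusted p = 0.0046). In replicate 3 of the co-cultured knockout ALDH1A1, with a transcript GC content of 43.1%, was the highest of its group and ALDH3A1, with 60.3%, the lowest, beside the GC trend of -0.831 in that library.

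The UGT1A genes went from at most 7 counts per control library to at least 14 per knockout library. They are read together here, since 49.9% to 64.4% of the exon bases of the 3 listed genes belong to other genes as well. These are UGT1A genes, except for AC114812.1 and AC114812.2 at UGT1A6. UGT1A9 (chr2:233671853-233773300), which conjugates phenols, had 1, 1 and 0 counts in the lone control, 2, 3 and 1 in the co-cultured control, 799, 471 and 406 in knockout cells grown alone, and 428, 481 and 705 in those co-cultured. Each control library held at most 3 counts and each knockout library over 400, and the knockout groups overlapped. The pooled count per tested count was 706 times that of control in lone cells (95% exact interval 195 to 5834). In co-culture it was 217 times (99.7 to 593). Such intervals, here and for the other UGT1A genes and their sum, cover counting error only and are no test against control. UGT1A9 had been listed for this difference, and the UGT1A genes had passed the filter through the knockout libraries. From lone to co-cultured knockout UGT1A9 had a log2 difference of -0.47 (SE 0.26, edgeR adjusted p = 0.239), which was -0.091 (adjusted p = 0.655) with offsets for GC and -0.74 (adjusted p = 0.0283) without co-cultured knockout replicate 3.

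UGT1A1 (chr2:233760248-233773299), the bilirubin-conjugating enzyme, had 2, 2 and 1 counts in the lone control, 3, 3 and 5 in the co-cultured control, 149, 96 and 67 in knockout cells grown alone, and 113, 153 and 203 in those co-cultured. The gap between control and knockout libraries was complete, and the knockout groups overlapped. The pooled count of UGT1A1 was 52.6 times that of control (95% exact interval 22.3 to 163) in lone cells and 34.5 times (19.1 to 69.5) in co-culture. UGT1A6 (chr2:233691607-233773300), which conjugates small planar phenols, had 1, 0 and 7 counts in the lone control, 1, 1 and 2 in the co-cultured control, 22, 14 and 17 in knockout cells grown alone, and 25, 32 and 31 in those co-cultured. Lone control replicate 3 held most of the control counts. The pooled count of UGT1A6 was 5.58 times that of control (2.64 to 13.6) in lone cells and 17.8 times (6.70 to 66.7) in co-culture, and its fitted log2 fold change in lone cells went from 2.46 to 4.58 without that library. At these levels differences among the control libraries were not detectable.

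UGT1A7, which is outside the 10 and was named from the list of other glucuronosyltransferases, took a larger share of the UGT1A counts in co-culture. It had 2, 0 and 0 counts in the lone control, 1, 1 and 2 in the co-cultured control, 166, 107 and 67 in knockout cells grown alone, and 284, 356 and 380 in those co-cultured. All co-cultured knockout libraries lay above all lone ones, unlike UGT1A9. The step was 1.17 on the log2 scale (SE 0.30, edgeR adjusted p = 0.0304), and 7 of 20 alternatives lost the call, with values of 0.99 to 1.39. Within libraries, a ratio again chosen after the values were seen, UGT1A7 had 0.200 ± 0.0318 counts per UGT1A9 count in the lone knockout and 0.648 ± 0.102 in the co-cultured knockout (n = 3, exact permutation p = 0.1, the smallest possible). Of all UGT1A counts UGT1A9 took 70.2% ± 2.11 alone and 49.8% ± 3.25 in co-culture, UGT1A7 14.0% ± 1.84 and 32.0% ± 3.07, and UGT1A1 13.0% ± 0.979 and 14.4% ± 1.10. UGT1A9 and UGT1A7 lay apart between the 2 groups and UGT1A1 overlapped. The pooled sum over all UGT1A genes was 101 times that of control in lone cells (65.1 to 165) and 86.8 times in co-culture (60.7 to 129), and the log2 difference between co-cultured and lone knockout was 0.01 (SE 0.24).

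Co-culture of the knockout cells raised 2 of the 10 genes, AKR1B1 and AKR1C1, and lowered none, where 5.97% of all genes rose, 5.4% fell and 11.4% changed in either direction. Of all calls in that step 52.5% were higher, against 69.6% with library size only and 36.6% without co-cultured knockout replicate 3. The median of the 10 was 0.17, against 0.01 over all genes. Of the other 8, AKR1C3 alone had groups that did not overlap. The share of all genes without overlap was not counted, in knockout or in control cells. In control cells none of the 10 was called between co-culture and lone culture, nor was any other gene (0%), and 540 of 16768 genes had an unadjusted p under 0.05. DESeq2 also called 0 there. AKR1B10 and AKR1C3 were the 2 of the 10 whose control groups did not overlap, both higher in co-culture, by 0.34 (SE 0.15) and 0.33 on the log2 scale. With offsets for GC these values were 0.24 and 0.22. Over 4875 genes the log2 difference between the control groups had a Spearman correlation of -0.749 with transcript GC content. That correlation was 0.313 between the knockout groups and 0.603 for the difference of the 2 steps. All comparisons that involve the lone knockout share its 3 libraries, and so their values are only set side by side.

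Other genes of the same families and pathways were counted over whole lists, and those named were mostly the members with the smallest p-values, so named for how they moved. Each count for co-culture stands beside 24.1% of all genes higher and 25.3% lower. Among other aldo-keto reductases, 4 of 8 tested rose and 2 fell between knockout and control in co-culture, with a median of 0.41. KCNAB2, a potassium channel subunit of this family, rose by 1.85 (SE 0.18), AKR1B15 by 1.75 and AKR1A1, a general aldehyde reductase, fell by 0.93. Other aldehyde dehydrogenases gave 6 higher and 4 lower of 14, the latter near the share over all genes, with ALDH2, the mitochondrial acetaldehyde enzyme, higher by 1.03 and ALDH1A3, another retinal dehydrogenase, at -1.99. Of the other carbonyl reductases, 5 of 14 rose and 2 fell: the prostaglandin reductase PTGR1 rose by 1.99, the carbonyl reductase CBR1 by 1.76, and sorbitol dehydrogenase SORD, which acts after AKR1B1 in the polyol pathway, fell by 1.35. Of the other glucuronosyltransferases and the genes that supply UDP-glucuronate, 4 of 8 tested were higher and 1 lower. The higher ones include UGT1A7, which passed the filter through the knockout libraries. The lower one is UGT8, a galactosyltransferase, which passed it through the control libraries, so no test is given for it. UGT8 had 85 to 118 counts per lone control library, 138 to 159 per co-cultured control library and 0 to 3 per knockout library. UGP2, which makes UDP-glucose, was higher by 1.43. Each log2 value named here had an edgeR adjusted p under 0.05.

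The list of NRF2 regulators and further targets had 13 higher and 1 lower of 21, with a median of 0.85, between knockout and control in co-culture, where 24.1% of all genes were higher and 25.3% lower. HMOX1, which breaks down haem, rose by 2.18 (SE 0.19), SRXN1, which repairs peroxiredoxins, by 2.03 (SE 0.28) and MAFG, a partner of NRF2, by 1.11 (SE 0.16), while KEAP1 was the gene that fell, by 0.62 (SE 0.20, edgeR adjusted p = 0.0218). NFE2L2, the gene of NRF2, was at 6.45 to 11.8 CPM in the lone control and 15.9 to 27.2 CPM in the lone knockout. These groups did not overlap, but the log2 difference of 1.12 did not pass (SE 0.49, adjusted p of edgeR 0.0657). It was at 12.8, 9.11 and 7.95 CPM in the co-cultured control and 6.30, 3.13 and 17.8 CPM in the co-cultured knockout, with a log2 fold change of -0.13 (SE 0.48) that was not called. Its co-cultured knockout libraries lay on both sides of the control. From lone to co-cultured knockout this list gave 1 higher and 2 lower of 21 with a median of -0.26. In that step 5.97% of all genes were higher and 5.4% lower, so these counts are near the share over all genes. HMOX1, at 566, 715 and 735 CPM alone and 392, 449.8 and 298 CPM in co-culture, fell by 0.82 (edgeR adjusted p = 0.0134) and MAFF, a small MAF partner, rose by 2.17. AKR1B1 and AKR1C1 rose in the same step, and a cause shared with either HMOX1 or MAFF was not tested.

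In the aryl hydrocarbon receptor list, 3 of 8 genes rose and 1 fell between co-cultured knockout and control, beside 24.1% and 25.3% of all genes. CYP1A1, the classic target of that receptor, was at 1.86, 2.40 and 2.73 CPM in the lone control, 2.91, 2.45 and 2.41 in the co-cultured control, 0.804, 0.647 and 1.16 in knockout cells grown alone, and 9.40, 6.71 and 5.49 in those co-cultured. Lone knockout libraries lay lowest and co-cultured ones highest. It fell by 1.44 (SE 0.31, edgeR adjusted p = 0.00151) in lone cells and rose by 3.06 (SE 0.30, edgeR adjusted p = 7.20e-05) from lone to co-cultured knockout. CYP1B1, a related monooxygenase, rose by 2.32 in lone and 1.20 in co-cultured cells, ARNT, the receptor's partner, fell by 0.50 in co-culture, NQO1, a quinone reductase of both the NRF2 and the receptor list, rose by 0.67, and AHR itself had -0.60 (SE 0.43) and was not called.

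In the retinoid list, which holds genes on either side of the retinal that AKR1B10 and ALDH1A1 compete for, 5 of 12 rose and 3 fell between knockout and control in co-culture, the latter near the share of 25.3% over all genes. The retinoic acid carrier CRABP2 fell by 5.58 (SE 0.23), while CYP26B1, which degrades retinoic acid, rose by 1.79 (SE 0.13). From lone to co-cultured knockout CYP26B1 rose by 1.04, CRABP2 by 1.33 and RDH10, which makes retinal from retinol, by 0.79. Of the phase II and efflux genes 12 of 21 rose and 3 fell in co-culture, beside 24.1% and 25.3% of all genes, with the exporters ABCC1 and ABCC3, which carry glucuronide and glutathione conjugates, higher by 1.27 (SE 0.11) and 1.34 (SE 0.16), and the sulfotransferase SULT2B1 at -4.26 (SE 0.34). From lone to co-cultured knockout ABCC4, another conjugate exporter, fell by 1.64 and none of the 21 rose, beside 5.97% of all genes higher and 5.4% lower. GUSB, which removes glucuronic acid in lysosomes, rose by 0.60 in that step and ALDH5A1 fell by 0.75, each with an edgeR adjusted p under 0.05.

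**Figure D4:**
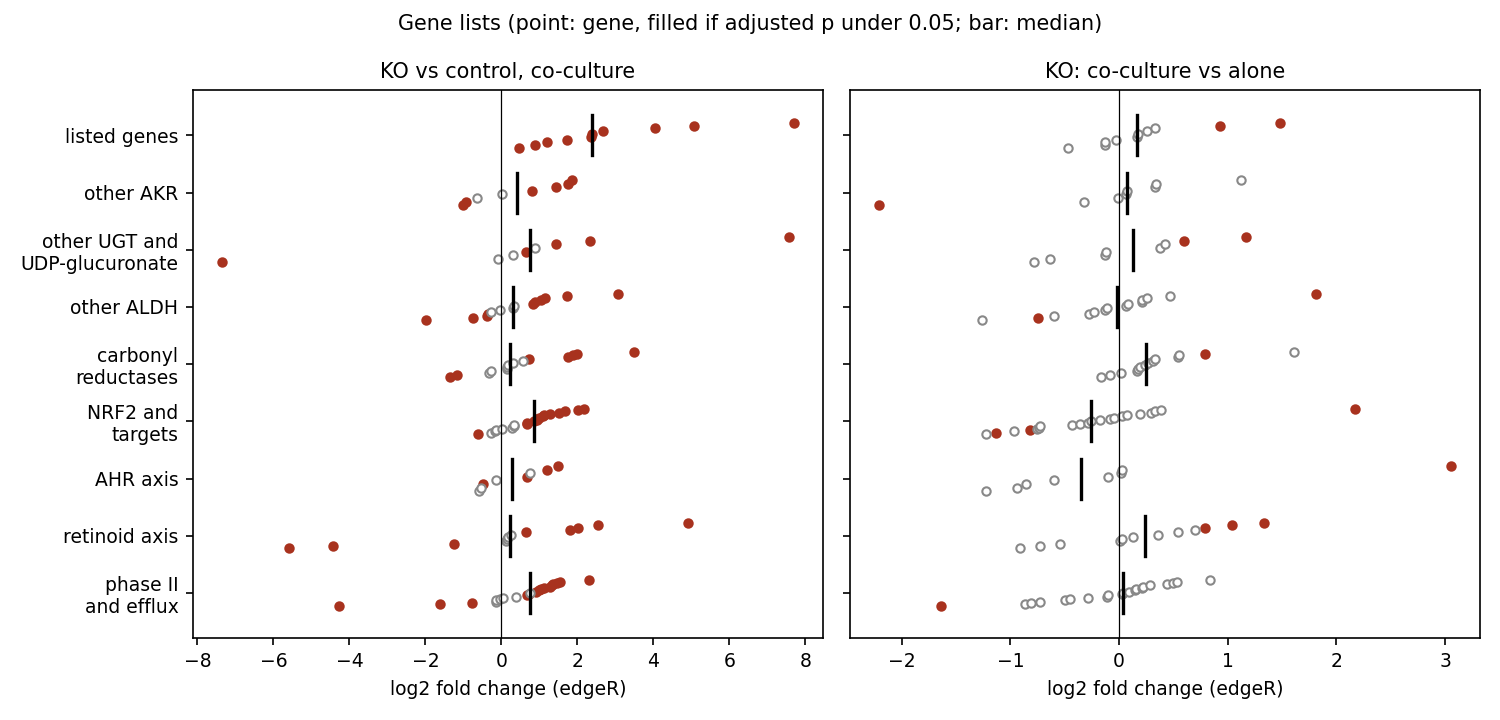
Log2 fold change (edgeR) of every tested gene of each list, for knockout against control in co-culture (left) and for co-cultured against lone knockout (right). Filled points had an adjusted p under 0.05 and black bars are list medians, which were 2.37 and 0.17 for the 10 genes and 0.85 and -0.26 for the NRF2 list. On the left, filled points include UGT1A genes and UGT8, which passed the filter through the knockout or the control libraries alone. The 10 genes had been listed with that comparison in view, so their median there only describes them.

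The genes most like each of the 10 over the 12 libraries were found by Pearson correlation of log2 CPM, as a description. The libraries fall into 2 sets, control and knockout, which raises any such value. AKR1B1 was closest to YPEL3 (r = 0.996) and TNFAIP2 (r = 0.993), AKR1C1 to NECTIN4 (r = 0.996), AKR1C3 to GPX3 and CCN1 (r = 0.996 each), UGT1A1 to PTGR1 (r = 0.997), UGT1A9 to MAF and EPAS1 (r = 0.997 each) and ALDH1A1 to NAMPT (r = 0.991). Among the 10 genes themselves, AKR1B1 and ALDH1A1 had r = 0.600 and UGT1A1 and UGT1A9 r = 0.993.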

How the data were processed

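RNA was sequenced from 12 libraries in 4 groups of 3. The authors deposited raw counts per Ensembl gene, made with STAR 2.7.9a and featureCounts on GRCh38 per the submitters' processing notes, which also name FastQC, R 4.2.1 and DESeq2 1.36.0. Strand setting and the treatment of reads shared between genes are not given in the sources used here, and both bear on the AKR1C, AKR1B10 and UGT1A genes. Symbols were found for 42045 of 61541 rows. In R 4.3.3 with edgeR 4.0.16, filterByExpr kept 16768 genes, libraries were scaled by TMM, and 4 group means were fitted over all 12 libraries with robust quasi-likelihood tests. P-values were adjusted over all genes, with calls at an adjusted p under 0.05. The biological coefficient of variation was 22.1%. The SE is the log2 fold change over the root of F. On simulated counts, 80.8% of 4-fold and 38.8% of 2-fold changes were recovered between lone knockout and lone control. A library at 14921371 counts limits precision for genes of a few counts. No 2 libraries were copies, with chi-square per gene from 7.96 to 117.

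Alternatives were other scaling, no filter, replicate block, GC offsets, DESeq2 1.42.0, only 2 groups, and each library left out. Genes named from a list were the 3 called with the smallest p in knockout against control in co-culture and the 2 in co-cultured against lone knockout, at 5 CPM or more in a group, and AHR, CYP1A1, CYP1B1, KEAP1 and NFE2L2 always. Some genes that this rule selects are left out here. The 10 genes and the lists were chosen with earlier results of these data known. Promoters were aligned with Biopython 1.88.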

Additional observations from a re-analysis of the deposited data

Results flagged for a closer look

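The response of AKR1B1 to co-culture differed between knockout and control cells: its log2 step from lone to co-culture was 1.47 higher in the knockout (SE 0.32, edgeR adjusted p = 0.0357 over 16768 genes), and all 3 co-cultured knockout libraries lay above all 3 lone ones while the control groups overlapped. The transcript GC content of AKR1B1 is 55.6%, and the co-cultured knockout library with the opposite GC trend, replicate 3, was the lowest of its group for this gene. The difference was 1.64 at most and 1.28 at least over the alternatives, but 10 of 19 of them lost the call, among them the replicate block (adjusted p = 0.0526) and 9 of the 12 with a library left out.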

How the results depend on the processing

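The 10 genes kept their direction under all alternatives in both comparisons of knockout with control, and AKR1B1 and AKR1C1 kept their calls from lone to co-cultured knockout. With GC offsets, or the replicate block with GC offsets, 4 of the 10 were called in that step, and the AKR1C sum was called at 0.90 and 0.91, as with DESeq2 at 0.47. Genes called from lone to co-cultured knockout numbered 1907, against 3347 with DESeq2, 4822 with GC offsets, 3340 without the filter, 664 with only 2 groups, 1080 with the replicate block and 4061 with the block and GC offsets, and 536 to 5680 when a library was left out, the most without co-cultured knockout replicate 3. Of these calls 52.5% were higher, against 69.6% with library size only, 71.5% with only 2 groups, 60.6% with the replicate block, 48.0% with DESeq2, and 36.6% without co-cultured knockout replicate 3 to 75.7% without replicate 1. For the difference of the 2 co-culture steps 301 genes were called, against 878, 1392 and 1342 with DESeq2, GC offsets and no filter, 179 and 846 with the block without and with GC offsets, and 119 to 3623 with a library left out. Of these 84.1% were positive, against 33.1% without co-cultured knockout replicate 3, 54.0% with GC offsets, 54.7% without the filter and 64.5% with DESeq2. There 1 of the 10 genes was called, 0 with the block, and 0 to 2 with a library left out. Without the filter 2 genes were called between control groups. Values that changed sign were small or uncalled in all but 1 case, ALDH1A1 from lone to co-cultured knockout, which became 0.32 with GC offsets and with the block and GC offsets, and ranged from -0.47 to 0.10 with a library left out. In the same step AKR1B10 became 0.10 and 0.11 with these offsets and 0.0024 without the filter, and with AKR1B15 0.082, 0.089 and 0.0038. ALDH3A1 became 0.046 with DESeq2 and with RLE factors, 0.11 without the filter, and up to 0.16 with a library left out. UGT1A1 ranged from -0.10, without co-cultured knockout replicate 3, to 0.35. The UGT1A sum became -0.041 with library size only and -0.012 with the block, and ranged from -0.20 to 0.19 with a library left out. In control cells it ranged from -0.14 to 0.42, and the difference of steps from -0.41 to 0.14, with 0.17 and 0.16 under GC offsets without and with the block. With a library left out UGT1A6 ranged from -1.86 to 0.83 in control cells and from -0.58 to 2.12 in the difference, each sign change coming without lone control replicate 3. AHR in lone cells became -0.17 and -0.15, and KEAP1 between the knockout groups -0.058 and -0.059, with GC offsets without and with the block. NFE2L2 in co-culture ranged from -1.08 to 0.26 with a library left out. The replicate numbers did not meet the bar for pairing: 7 of 18 same-numbered pairs had deviations with r over 0.1 (from -0.603 to 0.491), and 1 of 12 libraries had its best match in its own number. The GC trend nevertheless followed the number in 3 groups, at -0.629 to -0.713 in replicate 1, -0.109 to 0.0937 in replicate 2 and 0.706 to 0.758 in replicate 3, while in the co-cultured knockout it was 0.598, 0.805 and -0.831. Depth limits the control values of the UGT1A genes, at 7 counts or fewer per library.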
